A study of Mus musculus with 8 samples.

Results

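Cytosolic ribosomal protein genes were described across the 8 colon arrays. They were chosen by gene symbol, as genes named Rpl or Rps and a number, with suffixes such as a, x or l allowed, together with the stalk genes and Rpsa. The rule found 63 genes among 19505 with a name on the array, each with 1 probe set. Of these, 33 encode large subunit proteins, 22 encode small subunit proteins and 8 are paralogs with a suffix to the parent's symbol, such as Rps27l. Of 84 protein-coding genes in the mouse gene table whose symbols match the rule, 62 were measured under their name and 22, among them Rps3, Rps2, Rpl13a and Rplp2, were not analysed here. The other member, Rps4l, is listed in that table as a transcribed pseudogene.

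The arrays came from 8 wild type BALB/c recipients, all with graft-versus-host disease, the attack of donor T cells on host tissue. All 8 had been lethally irradiated and transplanted with C57BL/6 bone marrow and T cells on day 0, so their colons could hold cells of both strains. From day 0 to day 7, 4 mice received PBS by mouth and 4 received 1.2 mg/kg hBD-2, human beta-defensin 2, an antimicrobial peptide of epithelia. Whole colon was taken on day 7 and each mouse gave 1 array. The groups bear on what oral hBD-2 does to gene expression in the diseased colon. No mice without the disease were analysed here. The labels give a replicate number per array but not litters or cages, so a spread between arrays is a spread between these 8 mice.

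A ribosome is built from a small subunit, which reads the mRNA, and a large subunit, which joins amino acids. Each holds ribosomal RNA made mostly by RNA polymerase I and a set of proteins, most of them in a single copy, so the genes of these proteins are usually expressed together. In vertebrates most of their mRNAs begin with a C followed by a stretch of C and U bases, the 5′ terminal oligopyrimidine (TOP) motif. Through it the kinase mTORC1 and the RNA-binding protein Larp1 govern their translation and stability. In the intestine the dividing cells of the crypts, and elsewhere activated lymphocytes, are known for a high demand for ribosomes, and Myc is a known activator of ribosome production.

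Runs of C and T lie near the annotated starts of many of these genes. RefSeq start windows (build GRCm38.p6) were matched for 50 members, with 61 windows in all. Windows from 15 bases before to 15 bases after the start are shown for members whose 2 groups of mice did not overlap (Rpl35a, Rpl19, Rps15a, Rps9, Rps3a1, Rps16, Rpl36a), for 4 of the 8 members with a run of at least 11 bases whose groups overlapped (Rpl7a, Rpl15, Rps10, Rpl28), and for paralogs (Rps27l, Rpl22l1). No window was matched for Rplp1, Rpl7, Rpl32 and Rpl3, whose groups also did not overlap. The windows shown were chosen after the values were seen. Capitals mark the longest run of C and T of at least 6 bases on the transcribed strand, and a window without capitals holds no run of that length.
Rpl35a: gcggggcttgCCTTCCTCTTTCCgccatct
Rpl19: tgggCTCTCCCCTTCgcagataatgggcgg
Rps15a: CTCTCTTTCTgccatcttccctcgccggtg
Rps9: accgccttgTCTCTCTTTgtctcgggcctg
Rps3a1: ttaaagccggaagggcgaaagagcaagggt
Rps16: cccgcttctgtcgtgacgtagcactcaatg
Rpl36a: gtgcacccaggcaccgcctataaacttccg
Rpl7a: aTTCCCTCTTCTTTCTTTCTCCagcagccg
Rpl15: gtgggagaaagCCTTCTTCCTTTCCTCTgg
Rps10: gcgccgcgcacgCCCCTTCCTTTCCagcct
Rpl28: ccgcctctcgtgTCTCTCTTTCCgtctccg
Rps27l: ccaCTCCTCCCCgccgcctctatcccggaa
Rpl22l1: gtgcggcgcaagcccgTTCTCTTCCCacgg
The run of Rpl35a is 13 bases long (chr16:33056467-33056496, plus strand), that of Rpl7a 21 bases and that of Rpl15 17 bases. The window of Rps15a lies at chr7:118116133-118116162 on the minus strand and that of Rpl19 at chr11:98026909-98026938 on the plus strand. A gene can have several annotated starts, and the other windows of Rpl19, Rpl35a and Rps27l hold no run of that length.

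A run of at least 6 C or T bases on the transcribed strand stood in 47.5% of the 61 member windows and in 29.2% of all 32851 windows. Of the 29 member runs, 14 covered the annotated first base, 10 ended before it and 5 began after it. A run near an annotated start is thus not in itself a TOP motif, which begins at the mRNA's first base. On the opposite strand the shares were 8.2% and 32.4%. Over longer windows, from 250 bases before to 50 after the start, CCGGAAG, the core bound by ETS family factors, was found on either strand in 36.1% of member windows and 8.86% of all. AAGATGG, a core bound by YY1, stood in 16.4% and 6.34%, the E-box CACGTG, which Myc can bind, in 8.2% and 7.15%, and TATAAA in 11.5% and 13.6%. In none of the 29 member windows with a C or T run did the run overlap an ETS or YY1 match. These are matches of letters, and no binding was measured.

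The colon identity of the tissue was seen in its markers. All 15 colon epithelial markers, among them Epcam, Cdx2, Slc26a3 and Muc2, lay above the median of all genes, while 2 of 6 small intestinal and 1 of 6 skeletal muscle markers did. In 2 mice, hBD-2 1 and hBD-2 3, genes of the posterior colon such as Hoxb13 were high. The 9 such genes measured averaged 1.14 and 0.88 log2 units above their own means in this pair and from -0.47 to -0.16 in the other 6 mice, so counts are also given without the pair, an alternative chosen after seeing the data.

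No ribosomal protein gene passed an adjusted p of 0.05 in limma, which fits all 19505 genes at once. Of all genes 0.0410% passed. The lowest adjusted p among the 63 members was 0.351. Most members nevertheless lay slightly lower in the hBD-2 mice. The mean difference, hBD-2 minus PBS, was below 0 for 55 of the 63 genes (87.3%), against 46.5% of all genes. Its median was -0.049 log2 units over the members and 0.012 over all genes. The members were bright, with a median level of 11.13 log2 units against 6.93 over all genes. Without the lowest 50% of probe sets the median difference was -0.052 over the 60 members kept and -0.014 over all genes kept. Members were not compared with genes of similar level. Differences ran from -0.19 in Rpl35a to 0.21 in Rps4l, and the 95% intervals of all 63 lay between -0.36 and 0.46. For 47 of the 63 the interval lay inside 0.25 log2 units on either side of 0.

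**Figure D1:**
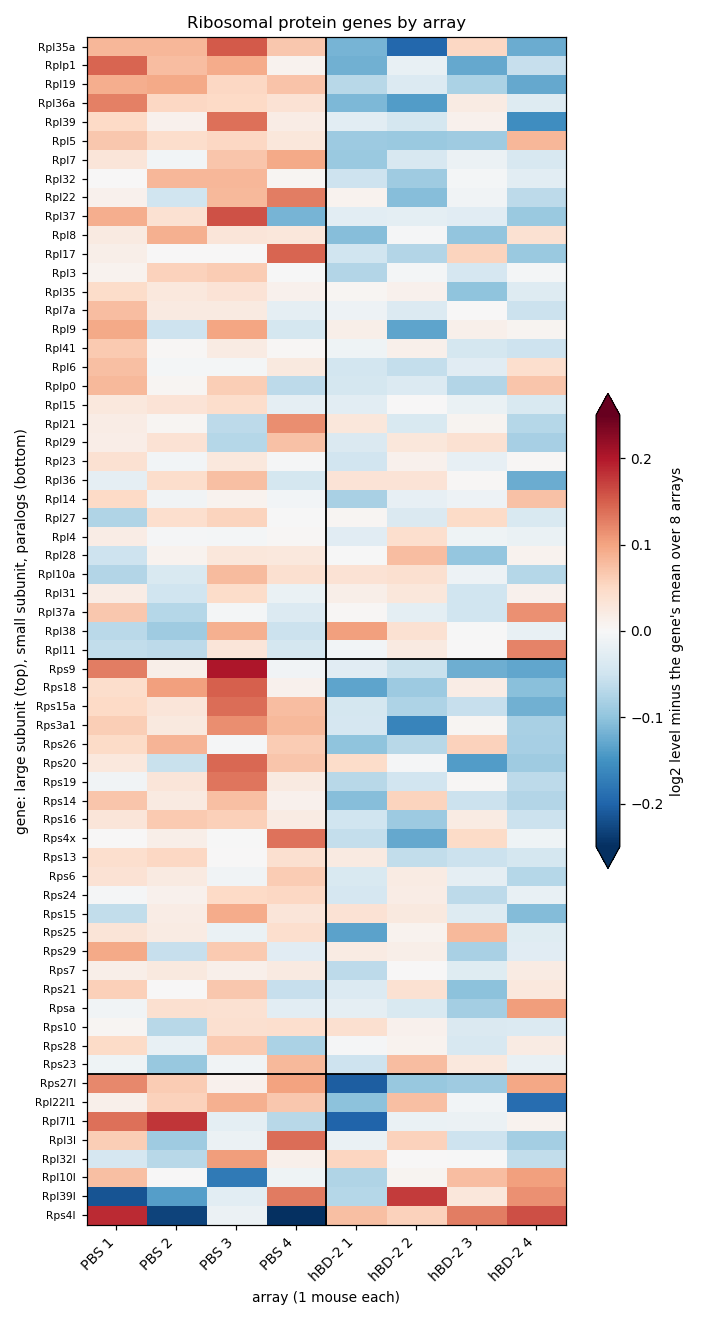
Log2 level of each of the 63 ribosomal protein genes in each of 8 arrays, minus that gene's mean over the 8, with genes in rows (large subunit, small subunit, paralogs, each sorted by group difference) and mice in columns. Red cells (above the gene's mean) predominate in the 4 PBS columns and blue cells in the 4 hBD-2 columns of the first 2 blocks, while the 8 paralogs show no common pattern.

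The same tilt could be read mouse by mouse. In the PBS mice 50, 42, 48 and 41 of the 63 genes lay above their own mean over the 8 arrays, and in the hBD-2 mice 17, 29, 22 and 20 did. In this count, made without array centring, the lowest PBS mouse therefore stood above the highest hBD-2 mouse. Among all genes the shares above the mean ran from 47.0% to 52.2% in PBS and from 46.6% to 57.1% in hBD-2 mice. The mean deviation of the 63 genes was 0.034, 0.0074, 0.047 and 0.018 log2 units in the PBS mice and -0.039, -0.019, -0.022 and -0.027 in the hBD-2 mice. The median SD of a member over the 8 arrays was 0.063, against 0.15 over all genes.

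The size of the tilt is close to that of differences in centring between arrays. Medians over all genes ran from 6.90 to 6.94 log2 units from array to array. After centring each array on its median the difference was below 0 for 48 of the 63 genes. Its median was then -0.029 over the members and 0.032 over all genes. The array medians of PBS 2 and hBD-2 3 were 6.944 and 6.901. Their mean deviations over the members, 0.0074 and -0.022, lie closer together than these medians. Centring therefore puts hBD-2 3 above PBS 2, and the mice of the 2 groups are no longer separated by mean deviation. When quantile normalization was repeated instead, the difference was below 0 for 50 of the 63 genes. Its median was then -0.051 over the members and 0.0074 over all genes. RMA makes the distributions of the arrays alike, so a common shift of all highly expressed genes could not be seen. Whole tissue was measured, and fewer cells with many ribosomes cannot be told apart from less ribosomal protein mRNA per cell.

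At an unadjusted p under 0.05 in limma, 5 members were lower (7.94%) and none higher, with backgrounds of 5.98% and 5.85% of all genes. This share of lower genes is near the background. It moved both ways with the settings. It was higher with an intensity trend and robust prior (9 members, 14.3%, background 6.44%), without the lowest 50% of probe sets (8 of 60, 13.3%, background 8.33%) and with values under 4 set to 4 (16 members, 25.4%, background 6.2%). Without the pair hBD-2 1 and hBD-2 3 the count was 1 (1.59%, background 5.48%). It was 1 without PBS 1 (1.59%, background 4.57%) and 2 without PBS 2 (3.17%, background 4.67%). It was 1 without PBS 3 (1.59%, background 5.25%) and 0 without hBD-2 1 (background 5.11%). It was 2 (3.17%) each without hBD-2 2, hBD-2 3 or hBD-2 4, with backgrounds of 6.95%, 5.49% and 6.22%. With the replicate number as a block it was 1 (background 6.25%), and with array centring it was also 1 (background 5%). With quantile normalization repeated it was 6 (9.52%, background 6.14%).

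The groups were fully separated, with every hBD-2 mouse the lower, in 11 members (17.5%), against 3.60% of all genes, and in none did they lie above, against 2.80%. The gaps between the groups were narrow, from 0.00045 log2 units in Rps16 to 0.087 in Rpl19. With array centring 4 of 63 members did not overlap (6.35%, background 2.87%). Without the pair hBD-2 1 and hBD-2 3 there were 20 (31.7%, background 9.97%), and these included all 11. Leaving out hBD-2 2, hBD-2 3 or hBD-2 4 gave 18, 17 and 17, where the background with 3 mice in a group was 6.43%, 5.48% and 5.38%. In limma the spread of a gene is drawn toward that of all genes, and the median standard error of the members was 0.069, against 0.042 from their own spread.

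**Figure D2:**
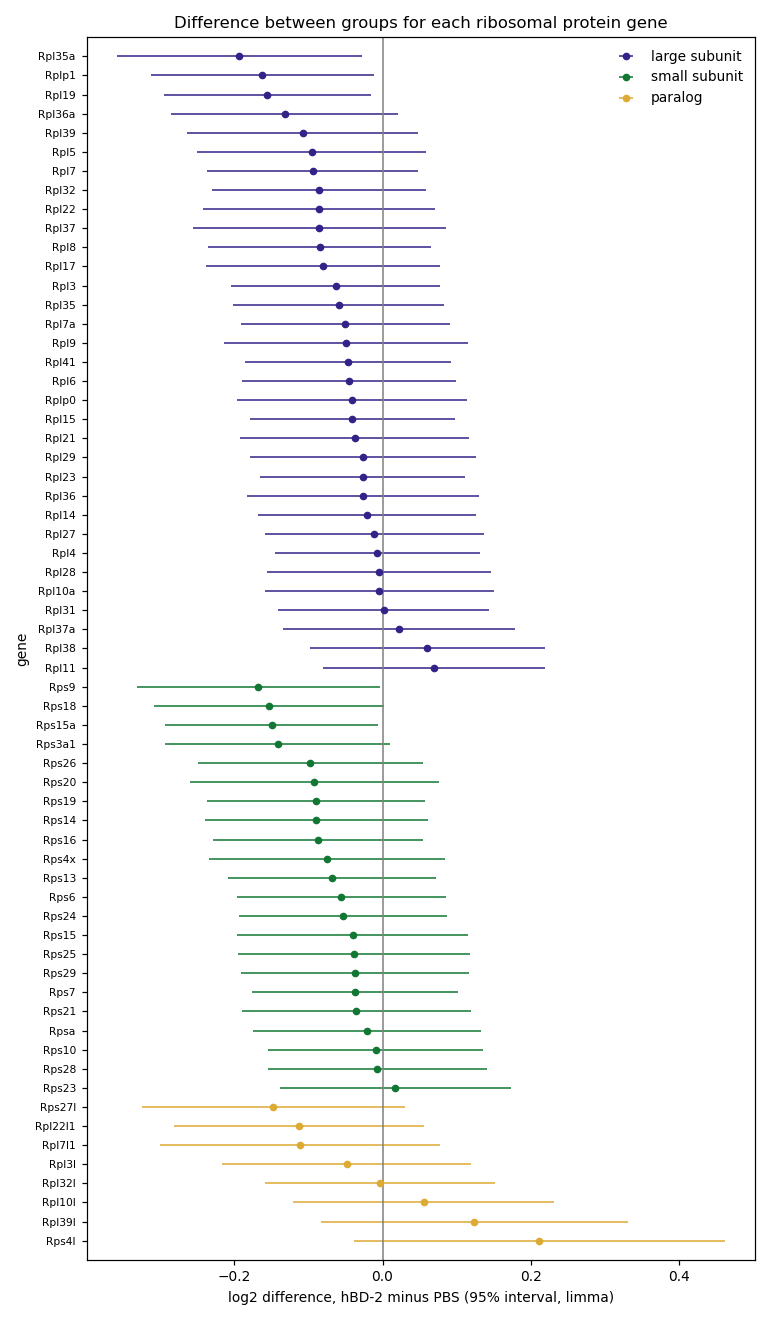
Difference between hBD-2 and PBS mice for each of the 63 genes on the log2 scale (x axis, 4 mice a group), with points for limma estimates and lines for 95% intervals. The points of 55 genes lie below 0, the differences run from -0.19 to 0.21, and the intervals of 5 genes exclude 0 before adjustment.

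Large subunit genes showed 29 of 33 differences below 0 (87.9%, all genes 46.5%), with a median of -0.047. In 7 of the 33 the groups did not overlap (21.2%), all on the lower side (all genes 3.60%). Rpl35a, a protein whose gene is among those mutated in Diamond-Blackfan anaemia, stood at 8.89, 8.89, 8.96 and 8.88 log2 units in the PBS mice and at 8.69, 8.61, 8.86 and 8.69 in the hBD-2 mice. The third hBD-2 mouse came close to the PBS mice and the other 3 lay clearly below. The difference was -0.19 (SE 0.074, 95% interval -0.36 to -0.028, adjusted p = 0.351), or 1.14-fold, and it did not pass.

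Rpl19, a protein of the lower face of the large subunit near the exit of the peptide tunnel, had the widest gap between the groups. It stood at 11.81, 11.82, 11.77 and 11.79 in PBS and at 11.65, 11.69, 11.64 and 11.59 in hBD-2 mice, a difference of -0.16 (SE 0.063, adjusted p = 0.370). Both groups were tight, with SDs of 0.020 and 0.038 (n = 4 each).

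Rplp1, an acidic protein of the stalk that recruits the translation factors, was lower in all 4 hBD-2 mice. Its levels were 12.62, 12.55, 12.57 and 12.48 in PBS and 12.35, 12.45, 12.34 and 12.41 in hBD-2 mice, a difference of -0.16 (SE 0.067, adjusted p = 0.385). Rplp0, the base on which Rplp1 sits, overlapped between the groups, at 10.40 to 10.55 in PBS and 10.39 to 10.53 in hBD-2 mice. Its difference was -0.041 (95% interval -0.20 to 0.11), so the interval of the stalk base includes both 0 and the value of Rplp1.

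The other 4 large subunit genes without overlap, named after their values were seen or as parents of paralogs, were Rpl36a at -0.13, Rpl7 at -0.094, Rpl32 at -0.086 and Rpl3 at -0.063. Rpl3, which lies close to the peptidyl transferase centre, stood at 12.04, 12.09, 12.10 and 12.04 in PBS and 11.96, 12.03, 11.99 and 12.03 in hBD-2 mice. The groups were thus separated although the difference was small, with a 95% interval of -0.20 to 0.077.

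Rpl5 and Rpl11, which travel with the 5S ribosomal RNA and, when free, bind the p53 inhibitor Mdm2, differed in sign. Rpl5 stood at 11.64, 11.62, 11.62 and 11.60 in PBS and at 11.48, 11.48, 11.48 and 11.65 in hBD-2 mice. The fourth hBD-2 mouse lay above all PBS mice and the other 3 lay below, and the difference was -0.095 (95% interval -0.25 to 0.059). Rpl11 was at 11.47, 11.47, 11.56 and 11.49 in PBS and at 11.53, 11.56, 11.53 and 11.66 in hBD-2 mice, a difference of 0.069 (95% interval -0.080 to 0.22). Neither passed. In both genes the highest level was that of hBD-2 4. The other core members with differences above 0 and the lowest p were Rpl38, at 0.060, and Rpl37a, at 0.022, both overlapping.

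Small subunit genes showed 21 of 22 differences below 0 (95.5%, all genes 46.5%), with a median of -0.062. In 4 of the 22 the groups did not overlap (18.2%), all on the lower side (all genes 3.60%). Rps9, a protein of the body of the subunit, stood at 10.62, 10.51, 10.70 and 10.49 in PBS and at 10.47, 10.44, 10.37 and 10.37 in hBD-2 mice, a difference of -0.17 (SE 0.074, adjusted p = 0.413). The groups were separated by 0.021 log2 units, less than either SD.

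Rps15a stood at 10.30, 10.28, 10.39 and 10.33 in PBS and at 10.20, 10.17, 10.19 and 10.13 in hBD-2 mice. The difference was -0.15 (SE 0.065, adjusted p = 0.407), with a gap of 0.075 between the groups. Rps18, in the head of the subunit, differed by the same amount, -0.15 (SE 0.070, adjusted p = 0.426), but overlapped, since hBD-2 3 at 11.01 lay above PBS 4 at 11.00.

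Rps3a1 (-0.14) and Rps16 (-0.087), named after their values were seen, also did not overlap. Rpsa, which is both a ribosomal protein and a cell surface laminin receptor, was at 11.10, 11.15, 11.15 and 11.08 in PBS and at 11.08, 11.07, 11.02 and 11.21 in hBD-2 mice. The groups overlapped fully and the difference was -0.021 (95% interval -0.18 to 0.13), turning to 0.023 without hBD-2 1 and hBD-2 3. Rps6, the substrate of S6 kinase downstream of mTORC1, was at -0.056 and overlapped.

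**Figure D3:**
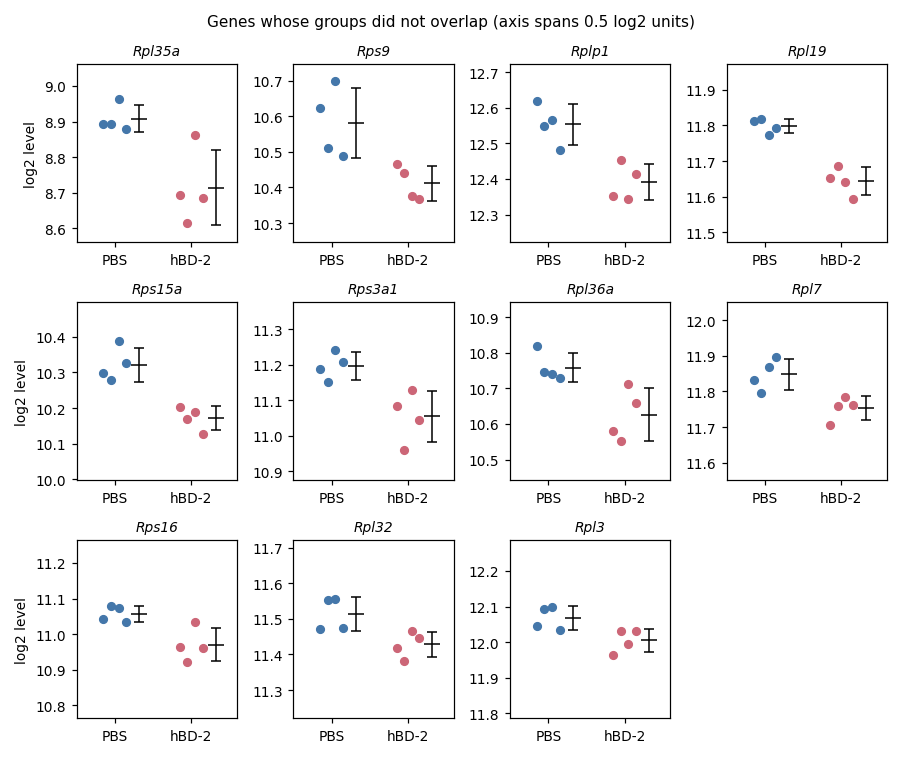
Log2 levels of the 11 genes in which the hBD-2 group lay wholly under the PBS group, 1 point a mouse, with black bars for the mean and SD of each group (n = 4) on axes of equal span. The gap between the groups is widest for Rpl19, at 0.087 log2 units, and almost absent for Rps16, at 0.00045.

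Of a partial list of 13 genes mutated in Diamond-Blackfan anaemia, a failure of red cell production caused by too few ribosomes, 11 were measured. Of these, 10 had differences below 0 (90.9%, all genes 46.5%), with a median of -0.041. Among these 11, Rpl35a was the only one with an unadjusted p under 0.05 in limma (9.09%, all genes 5.98% lower). It was also the only one of the 11 without overlap (9.09%, all genes 3.60% lower). The list does not hold Rps15a, which was also lower at that level and without overlap. Of 7 measured proteins around the exit of the peptide tunnel, 6 were below 0 (85.7%, all genes 46.5%), with a median of -0.085. Rpl19 was the only one of the 7 without overlap (14.3%, all genes 3.60% lower).

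The 8 paralogs were mixed in direction. Of these, 5 had differences below 0 and 3 above, none had an unadjusted p under 0.05, and none was without overlap. Their mean deviation ran from -0.028 to 0.042 log2 units in PBS and from -0.068 to 0.033 in hBD-2 mice. The median within-group SD was 0.094, against 0.057 for the other 55 members, and a difference between paralogs and the other members was not tested.

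Rps27l, a paralog of Rps27 known as a p53 target, stood at 9.54, 9.48, 9.43 and 9.52 in PBS and at 9.21, 9.32, 9.33 and 9.51 in hBD-2 mice. In 3 hBD-2 mice it lay below all PBS mice and in hBD-2 4 it lay among them. The difference was -0.15 (SE 0.080, adjusted p = 0.499) and -0.073 without hBD-2 1 and hBD-2 3. Mdm2, another p53 target, was at -0.18 (SE 0.078, adjusted p = 0.415), and its relative Mdm4 at -0.12. The third p53 checkpoint gene measured, Cdkn1a, named after its value was seen, was at 0.13, so that 2 of the 3 were below 0, with a median of -0.12.

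Rps4l had the largest SD over the 8 arrays, 0.20, and the largest difference above 0. It was at 6.75, 6.33, 6.55 and 6.20 in PBS and at 6.64, 6.62, 6.69 and 6.72 in hBD-2 mice. The PBS mice were scattered on both sides of the tight hBD-2 mice, and the difference of 0.21 (SE 0.11, adjusted p = 0.492) did not pass. It was 0.13 without PBS 4 and 0.31 without PBS 1. Its X-linked relative Rps4x was at -0.075 (95% interval -0.24 to 0.084).

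Among the other pairs, Rpl22 and its paralog Rpl22l1 were at -0.085 and -0.11, Rpl7 and Rpl7l1 at -0.094 and -0.11, and Rpl3 and the striated muscle form Rpl3l at -0.063 and -0.048. Rpl39 was at -0.11 and Rpl39l, known from the testis, at 0.12 (95% interval -0.083 to 0.33). Levels of Rpl39l and Rpl3l were near the low end of the array's range in PBS mice, at 4.70 and 4.84. Those of Rpl39 and Rpl3 were 10.98 and 12.07. Rpl10l, also a testis form, was at 0.055, or 0.0059 without PBS 3 and 0.090 without hBD-2 1, and Rpl32l at -0.0036. None passed, and whether parent and paralog differed in response was not tested. Ribosomal protein genes have many processed copies in the genome. The gene table lists 212 named pseudogenes of 45 of the 63 members, and how far probes of this array also bind their transcripts is not known here.

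**Figure D4:**
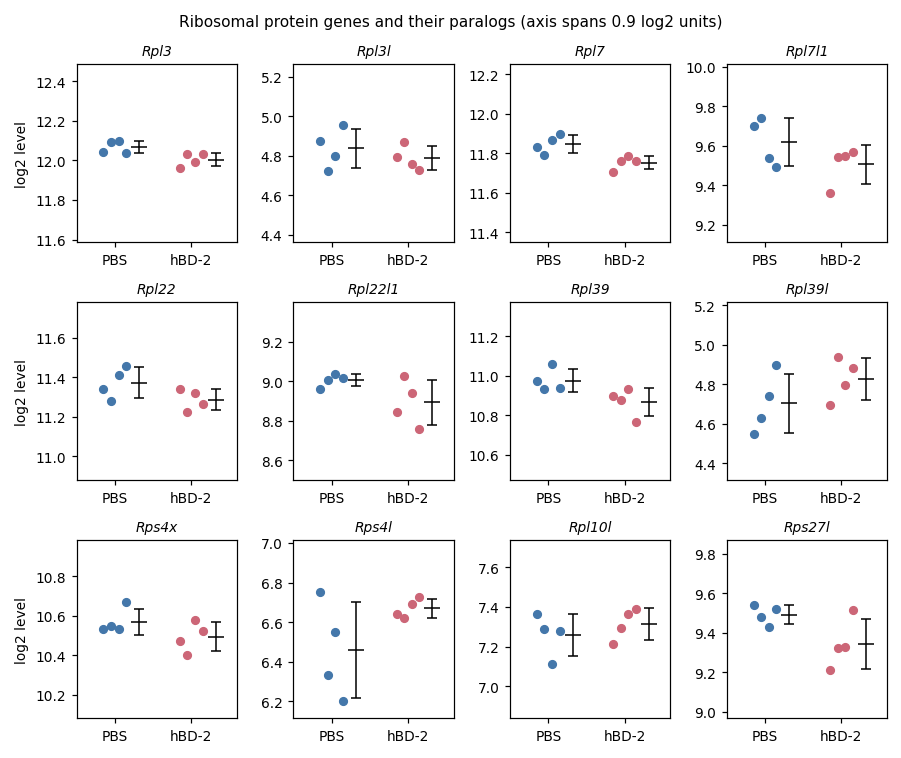
Log2 levels of 5 ribosomal protein genes beside their paralogs, and of 2 paralogs without a measured parent, 1 point a mouse, with mean and SD (n = 4) and axes of equal span. Rps4l is scattered among PBS mice from 6.20 to 6.75, and in Rps27l hBD-2 4 lies among the PBS mice.

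Other components that the symbol rule leaves out gave small differences. Fau, which encodes a small subunit protein fused to a ubiquitin-like domain, was at -0.016 (95% interval -0.18 to 0.15), and above 0 with array centring (0.00389) or without hBD-2 1 and hBD-2 3 (0.028). Rpl36al, a copy of Rpl36a, was at -0.093 (95% interval -0.26 to 0.075).

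Most translation factors and other genes with TOP mRNAs also lay slightly lower in the hBD-2 mice. Of 19 measured, 17 had differences below 0 (89.5%, against 46.5% of all genes), with a median of -0.055. In 3 the groups did not overlap on the lower side (15.8%, against 3.60% of all genes). None had an unadjusted p under 0.05 in limma. Eif3e, a subunit of initiation factor 3, stood at 9.99, 10.04, 9.99 and 10.12 in PBS and at 9.90, 9.94, 9.90 and 9.90 in hBD-2 mice, a difference of -0.13 (SE 0.065, adjusted p = 0.477). Eef1b2, the exchange factor of elongation factor 1, was at -0.12 (SE 0.068). Genes that govern TOP mRNAs, with 19 measured, had a median of -0.023 and no member at an unadjusted p under 0.05. The mTORC1 activator Rheb was at -0.10 and the elongation factor 2 kinase Eef2k at 0.21, or 0.042 without hBD-2 1 and hBD-2 3.

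Ribosome assembly genes had 49 of 54 differences below 0 (90.7%, background 46.5%), with a median of -0.082. At an unadjusted p under 0.05 in limma, 3 were lower (5.56%, background 5.98%). Dkc1, the pseudouridine synthase of small nucleolar particles, was at -0.29 (SE 0.10, adjusted p = 0.299) and Tcof1, a nucleolar partner of RNA polymerase I, at -0.27 (SE 0.11, adjusted p = 0.371). Their mean per mouse overlapped between the groups. It was 0.12 and 0.15 in PBS 1 and PBS 2, -0.028 and -0.057 in PBS 3 and PBS 4, and -0.11, 0.0020, -0.083 and 0.016 in the hBD-2 mice. Of 15 RNA polymerase I genes 11 were below 0 (73.3%, background 46.5%), with a median of -0.089. Taf1b, a factor of its promoter complex, was at -0.42 (SE 0.12, adjusted p = 0.228) and Polr1b, its second largest subunit, at -0.25 (SE 0.13), or -0.37 without PBS 4 and -0.17 without PBS 2.

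Myc, the transcription factor known to drive ribosome production, had the largest difference of the pathway genes named here. It stood at 10.62, 10.75, 10.49 and 10.41 in PBS and at 10.07, 10.21, 9.90 and 10.24 in hBD-2 mice, and the groups did not overlap. The difference was -0.46 (SE 0.10, 95% interval -0.69 to -0.24, adjusted p = 0.138 by limma) and did not pass. With an intensity trend and a robust prior in limma it passed, with an adjusted p of 0.0281. In that setting 91 of all genes passed, against 8 in the main fit. The difference lay between -0.52 and -0.40 with single arrays left out and was -0.34 without hBD-2 1 and hBD-2 3. Mga, a partner of Max that can oppose Myc, was at -0.15, and the 7 Myc network genes had a median of -0.030.

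Mitochondrial ribosomal protein genes, which serve the ribosomes of mitochondria, were measured for 76 genes. Their median was -0.015 and 44 were below 0 (57.9%, all genes 46.5%). At an unadjusted p under 0.05 in limma 2 were lower (2.63%, all genes 5.98%) and none higher (all genes 5.85%). None lay without overlap on the lower side (all genes 3.60%). On the higher side 1 did (1.32%, all genes 2.80%), Mrpl36 at 0.14. Mrps30 was at -0.26 (SE 0.10, adjusted p = 0.354). In PBS 4 only 14 of the 76 lay above their own mean and in PBS 1 58 did, so the PBS mice spanned the hBD-2 mice. A test between the cytosolic and mitochondrial sets was not made.

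**Figure D5:**
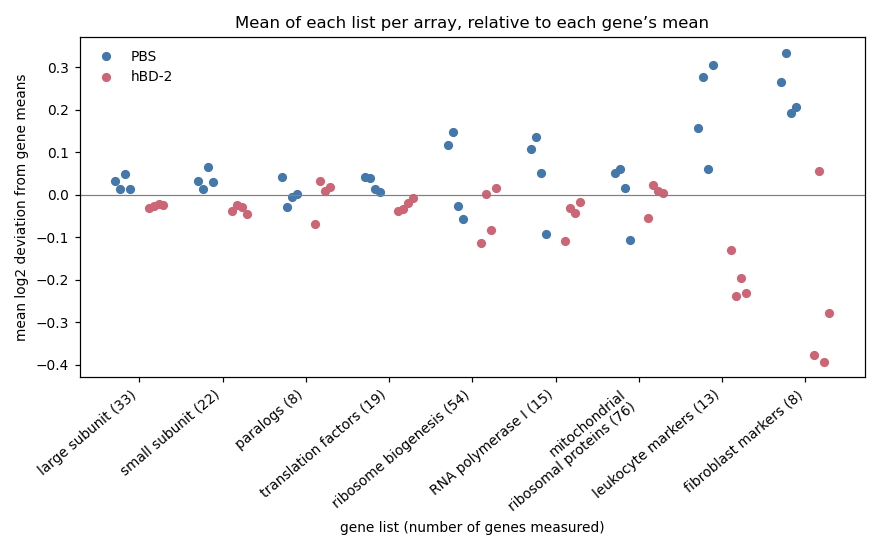
Mean log2 deviation of each gene list from each gene's own mean (y axis), 1 point a mouse, for ribosomal protein genes, related lists and markers of leukocytes and fibroblasts, with the number of genes measured in brackets. Without array centring, large and small subunit means separate the groups within 0.07 log2 units of 0. Biogenesis and RNA polymerase I means overlap, and marker means of leukocytes and fibroblasts differ by several times as much.

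Markers of other cell types differed between the groups. Among 13 leukocyte markers Aif1 passed an adjusted p of 0.05 in limma, as did 0.0410% of all genes. At an unadjusted p under 0.05 in limma 8 of the 13 were lower (61.5%, all genes 5.98%). Their median over the 13 was -0.42. The list mean lay between 0.059 and 0.30 in PBS and between -0.24 and -0.13 in hBD-2 mice. Of 8 fibroblast markers 7 were lower at that level (87.5%, all genes 5.98%), with a median of -0.52. Their list means were 0.19 to 0.33 in PBS and -0.39 to 0.055 in hBD-2 mice. The B cell markers Ms4a1 and Cd79a were near the low end of the array's range, at 4.08 and 5.04 in PBS mice. Proliferation markers had a median of 0.018, with none of 13 at an unadjusted p under 0.05, and list means that overlapped. Of 8 smooth muscle markers none was at that level, with a median of -0.17. Of 7 stem cell markers 1 was higher at that level (14.3%, all genes 5.85%). Of 15 colon epithelial markers 3 were higher at that level (20%, all genes 5.85%), with a median of 0.041. The part of these cell types in the ribosomal protein differences was not tested.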

How the data were processed

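The deposited table holds log2 expression per probe set, which the authors made with oligo and RMA per the submitters' processing notes (versions not given in the sources used here). RMA corrects background, equalises array distributions by quantile normalization and summarises probes. Platform annotation named 1 gene for 19572 of 22203 probe sets, and the probe set with the highest mean was kept per gene, leaving 19505 genes. All 63 members matched the GRCm38.p6 gene table by identifier.

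Differences (hBD-2 minus PBS) were tested in R 4.3.3 by lmFit followed by eBayes (limma version 3.58.1), two-sided, with Benjamini-Hochberg adjustment over all 19505 genes. The fit was tested on simulated data with added differences larger than that of any member. Recovery of differences as small as those of the members was therefore not examined. Groups and replicate numbers came from the sample titles. Same-numbered mice of the 2 groups were not consistently alike (correlation of deviations over 0.1 in 2 of 4 numbers), so the block is an alternative. No array pair was identical, and no batch is given. Depth has no counterpart here: the number of arrays limits precision.

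Members, lists and tests were chosen with earlier results of these data known. Named were, in each direction, the 6 members of lowest p, the stalk genes, Rpsa, paralogs and parents, the 5S pair, the 3 members with the largest SD, Fau and Rpl36al, the 2 genes of lowest p per pathway list, and 1 mitochondrial gene in each direction. Genes outside this rule are named as examples of markers or as stated in the text. Figures used matplotlib 3.10.9. Alternatives are given in the closing section.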

Additional observations from a re-analysis of the deposited data

Results flagged for a closer look

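In 4 of 98 groups of 4 mice checked, 1 mouse lay far from the other 3, where chance alone flags about 1 group in 20 (5%). Rpl5 in hBD-2 4 was at 11.65, while the nearest other hBD-2 mouse was at 11.48. Rpl7l1 in hBD-2 1 was at 9.36, below the next at 9.55. Rps4x in PBS 4 was at 10.67, above the next at 10.55. Eif3e in hBD-2 2 was at 9.94, above the next at 9.90.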

How the results depend on the processing

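No member passed an adjusted p of 0.05 in limma under any of the 21 alternatives, including a threshold of 0.1 and the replicate block. The lowest adjusted p among members was 0.102, with an intensity trend and robust prior. Members lower at an unadjusted p under 0.05, 5 as reported, numbered 9 with that prior (14.3%, all genes 6.44%), 8 without the lowest 50% of probe sets (13.3%, 8.33%), 16 with values under 4 set to 4 (25.4%, 6.2%), 1 with array centring, 1 with the replicate block and 1 without hBD-2 1 and hBD-2 3 (an alternative chosen after seeing the data). In those last settings, in that order, the shares of all genes were 5%, 6.25% and 5.48%. Quantile normalization repeated gave 6 (9.52%, all genes 6.14%). With single arrays left out, members lower at that level ranged from 0 to 5, where the share of all genes was 4.57% to 6.95%. Members higher at that level ranged from 0 to 1. Members whose groups did not overlap on the lower side were 11 as reported (17.5%, all genes 3.60%). They numbered 4 with array centring (6.35%, 2.87%), 9 with quantile normalization repeated (14.3%, 3.42%) and 20 without hBD-2 1 and hBD-2 3 (31.7%, 9.97%). With single arrays left out they numbered 12 to 18 (19% to 28.6%), where the share of all genes was 4.56% to 6.9%. Groups with fewer mice separate more easily. On the higher side there were 0 to 2. The median difference, -0.049, was -0.029 with array centring and -0.051 with quantile normalization repeated. It was between -0.058 and -0.039 with single arrays left out. With single arrays left out, Rpl37a ranged from -0.013 (without hBD-2 4) to 0.048, Rpsa from -0.060 to 0.0040 (without hBD-2 3) and Fau from -0.067 to 0.00769 (without hBD-2 3), with 0.00601 without hBD-2 4. Without the pair Rpsa was at 0.023 and Fau at 0.028, and with array centring Fau was at 0.00389. The other genes named by the rule or for groups without overlap (44 in all) kept their direction in each alternative that could be run for them. Rps4l had no value without the lowest 50% of probe sets, and Rpl39l and Rpl3l had none without the lowest 25% or 50%. Leaving out 1 array moved 16 of these 44 genes by over 1.5 times, and none of the 16 had passed. Myc passed with the intensity trend and robust prior in limma (adjusted p = 0.0281), where 91 of all genes passed against 8 in the main fit. It passed in no other alternative, and the cause of these shifts was not tested. Signal over background cannot be read from RMA values, which limits what is known of the dim paralogs.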
